A study of Mus musculus with 4 samples.

Results

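Bidirectional promoters are stretches of DNA from which a pair of neighbouring genes is transcribed in opposite directions. Here they were defined as pairs of protein-coding genes of the GENCODE annotation of mm10 that lie on opposite strands in head-to-head order, with the 5′ ends of their gene records 1 to 1000 bp apart. There were 754 such pairs on chromosomes 1 to 19 and X, and they held 1487 (6.84%) of the 21755 protein-coding genes of these chromosomes. Each region spanned both 5′ ends and 250 bp on either side. The median distance between paired 5′ ends was 129.5 bp, with quartiles of 67 and 240.0 bp, and 618 pairs (82.0%) had ends within 300 bp of each other. The closest ends were 1 bp apart, at Slc7a6os/Prmt7 and Bag4/Lsm1, and the most distant were 987 bp apart, at Btf3l4/Txndc12. In each name the gene on the minus strand comes first. Members were not all independent, since 42 pairs shared a gene with another pair.

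The chromatin was that of heart nuclei from male Cdh5-Cre/NuTRAP mice on a C57BL/6 background, 8 to 12 weeks old. The NuTRAP allele marks nuclei with GFP where Cre has acted, and the Cdh5 promoter drives Cre in endothelial cells, so that sorting yields GFP+ nuclei, of endothelial descent, and GFP- nuclei, which hold all other cell types of the heart. All animals carried both transgenes, and both populations came from them. ATAC-Seq, in which the transposase Tn5 inserts adapters into accessible DNA, was performed on 2 libraries of each population, with 100 to 50000 nuclei per reaction according to the labels. The deposited data are a single peak list per population, called from both libraries together, with 78912 peaks for GFP- and 65008 for GFP+ nuclei. The libraries were reduced to a common depth before the peaks were called. The lists hold no read counts and come from both libraries together, so no difference between the lists has a replicate check, no test was possible, and intervals cover counting error only. At the promoters of fibroblast and most endothelial marker genes the lists differed as labelled. Peaks lay at 7 of 8 fibroblast markers in the GFP- list and at 0 of 8 in the GFP+ list. Of 12 endothelial markers, 7 had a peak in the GFP- and 10 in the GFP+ list. The rank was higher in the GFP+ list, or the peak there alone, at 9 of these 12. Tek went the other way (81.1 in the GFP- and 54.1 in the GFP+ list). Pecam1 and Erg had no peak at the 5′ ends of their gene records, which need not be the starts in use. The authors report open chromatin at Erg in endothelial nuclei. Cardiomyocyte markers had peaks at 7 of 8 in both lists, with the higher rank in the GFP- list at 6 and in the GFP+ list at 1. Mural markers had peaks at 7 of 8 in the GFP- and 4 of 8 in the GFP+ list. At these 7 the rank was higher in the GFP- list or the peak there alone. Immune markers had peaks at 1 of 8 in both.

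Divergent transcription from a shared nucleosome-depleted region is common in mammalian genomes. Promoters of this type are mostly CpG islands without a TATA box, and many of them serve housekeeping genes of DNA repair, mitochondria, translation and the cell cycle. Both genes draw on a single stretch of accessible DNA, although the expression of both need not follow.

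The DNA between the 5′ ends of a pair is short enough to be shown whole for most pairs. The spans below are from pairs whose peaks ranked high in both lists, with Mrps12/Sars2 as a well-known pair of housekeeping genes. They are written on the plus strand of GRCm38.p6, 5′ to 3′, without the end bases themselves, and no annotated exon overlaps them. Capitals mark matches, on either strand, to 1 of 10 motif words. These are CCGGAAG for ETS factors, GCATGCGC for NRF1, CCAAT for NFY, GGGCGG for SP/KLF factors, AAGATGG for YY1, TGACGTCA for CREB-type factors, the E-box CACGTG, a longer word for ZNF143, the TATA box TATAAA and TGANTCA for AP-1. Ddx5/Cep95 shows how short a shared span can be, Mrps12/Sars2 carries 4 CCAAT words on the minus strand, and Ccdc148/Pkp4 has 5 SP/KLF words, some of which overlap each other or a CCAAT word.

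Peg3/Usp29 (chr7:6730432-6730577): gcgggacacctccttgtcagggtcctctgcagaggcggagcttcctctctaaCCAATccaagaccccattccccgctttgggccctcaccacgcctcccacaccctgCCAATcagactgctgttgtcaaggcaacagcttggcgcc
Ddx5/Cep95 (chr11:106789186-106789251): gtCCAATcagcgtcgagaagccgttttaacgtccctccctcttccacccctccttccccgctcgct
Mepce/Zcwpw1 (chr5:137787656-137787797): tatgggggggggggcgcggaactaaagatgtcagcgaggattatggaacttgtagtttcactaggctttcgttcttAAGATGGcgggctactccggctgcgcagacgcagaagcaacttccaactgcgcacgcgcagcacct
Cd3eap/Ppp1r13l (chr7:19359484-19359748): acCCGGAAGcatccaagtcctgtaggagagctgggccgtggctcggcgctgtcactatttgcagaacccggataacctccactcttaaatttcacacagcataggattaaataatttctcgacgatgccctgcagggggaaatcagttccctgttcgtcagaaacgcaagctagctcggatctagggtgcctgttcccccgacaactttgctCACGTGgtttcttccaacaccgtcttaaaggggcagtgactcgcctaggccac
Mrps12/Sars2 (chr7:28741821-28741991): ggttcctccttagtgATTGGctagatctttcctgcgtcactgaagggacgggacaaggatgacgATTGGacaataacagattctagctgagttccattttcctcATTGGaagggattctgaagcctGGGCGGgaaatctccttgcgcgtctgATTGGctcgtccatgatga
Ccdc148/Pkp4 (chr2:59160684-59160849): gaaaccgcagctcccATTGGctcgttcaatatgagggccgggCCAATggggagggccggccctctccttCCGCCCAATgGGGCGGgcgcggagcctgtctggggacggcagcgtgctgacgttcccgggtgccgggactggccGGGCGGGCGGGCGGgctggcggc

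A further set is shown because the lists differed at these pairs. The spans of Col4a4/Col4a3 and Tssk3/Fam229a hold no match to the 10 words, and the span of the histone pair Hist1h2bf/Hist1h2ad holds 4 CCAAT words.

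Kctd19/Lrrc36 (chr8:105413503-105413570): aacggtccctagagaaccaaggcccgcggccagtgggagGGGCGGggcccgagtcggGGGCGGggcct
Stap2/Mpnd (chr17:56005585-56005710): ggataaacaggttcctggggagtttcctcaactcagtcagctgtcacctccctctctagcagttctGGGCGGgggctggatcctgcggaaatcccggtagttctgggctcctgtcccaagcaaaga
Hist1h2bf/Hist1h2ad (chr13:23574197-23574380): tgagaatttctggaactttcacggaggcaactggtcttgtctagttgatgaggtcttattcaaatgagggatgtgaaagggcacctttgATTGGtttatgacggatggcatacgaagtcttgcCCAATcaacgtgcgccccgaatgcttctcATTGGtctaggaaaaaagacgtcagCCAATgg
Nup62cl/Pih1h3b (chrX:140062713-140062878): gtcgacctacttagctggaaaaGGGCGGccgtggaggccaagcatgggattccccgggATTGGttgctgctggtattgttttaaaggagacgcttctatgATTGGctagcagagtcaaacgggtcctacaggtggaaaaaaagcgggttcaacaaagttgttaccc
Sgce/Peg10 (chr6:4747208-4747305): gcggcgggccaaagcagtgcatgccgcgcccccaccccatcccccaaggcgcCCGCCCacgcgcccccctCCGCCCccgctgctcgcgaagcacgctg
Col4a4/Col4a3 (chr1:82586850-82586920): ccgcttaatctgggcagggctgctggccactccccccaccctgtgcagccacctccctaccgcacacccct
Tssk3/Fam229a (chr4:129491023-129491189): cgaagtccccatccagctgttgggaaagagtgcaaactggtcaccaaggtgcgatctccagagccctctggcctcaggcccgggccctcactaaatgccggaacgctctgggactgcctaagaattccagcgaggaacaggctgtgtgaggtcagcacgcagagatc

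Nearly all bidirectional promoters were accessible in both populations. A peak overlapped 699 of the 754 regions in the GFP- list, or 92.7% with a Wilson 95% interval of 90.6 to 94.4%, and also 699 regions in the GFP+ list. In comparison, single promoters, defined as 5′ ends ± 250 bp with no other protein-coding 5′ end within 1000 bp on either strand, had a peak at 52.5% (51.8 to 53.2%) of 19001 starts in the GFP- list and at 50.2% (49.5 to 50.9%) in the GFP+ list. The intervals of pairs and single promoters did not overlap in either list. Widening the single promoters upstream by 130 bp, the median distance between paired ends, gave shares of 52.7% and 50.4%.

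Base composition went with presence. CpG-rich promoters were those with at least 50% G and C and an observed to expected CpG ratio of at least 0.6 within 250 bp of the start or of the midpoint of a pair, and 629 pairs (83.4%) met this, compared with 43.5% of single promoters. The median GC content was 62.5% at pairs and 56.3% at single promoters, and the median CpG ratio was 0.834 and 0.517. Among CpG-rich promoters, 605 of 629 pairs (96.2%, interval 94.4 to 97.4%) had a peak in either list, compared with 89.2% (88.5 to 89.8%) of single promoters in the GFP- list and 87.5% (86.7 to 88.2%) in the GFP+ list. Among the others, 94 of 125 pairs (75.2%, 66.95 to 81.9%) had a peak in each list, compared with 24.2% and 21.4% of single promoters. Pairs had the larger share in both classes and both lists, and no interval of the pairs overlapped that of the single promoters of the same class.

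**Figure D1:**
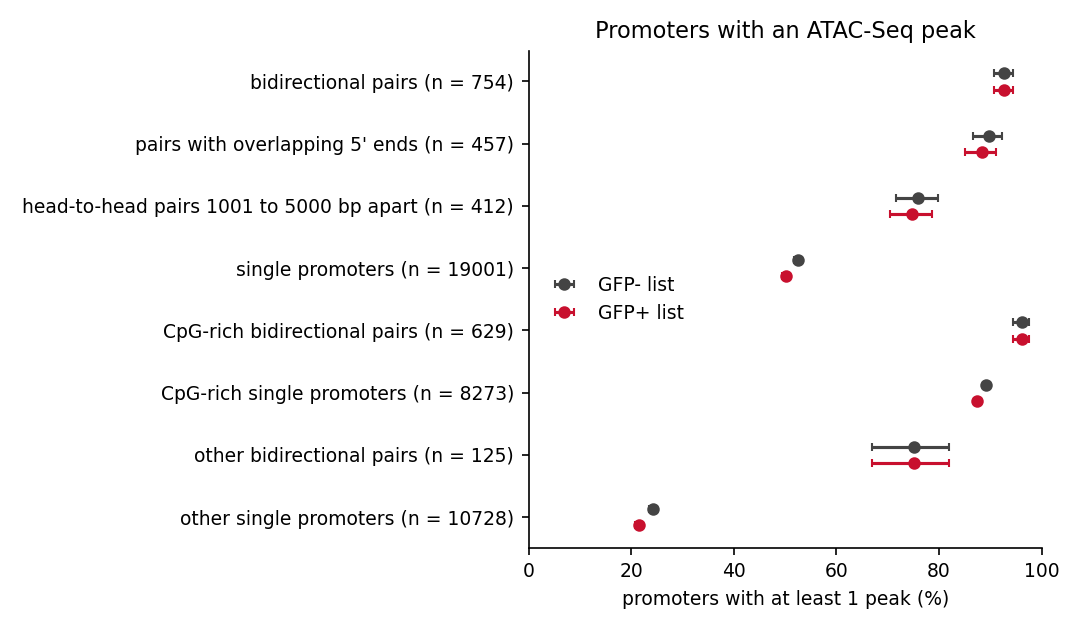
Share of promoters with at least 1 overlapping peak in the GFP- (dark) and GFP+ (red) lists, with Wilson 95% intervals, for pairs and single promoters, all and split by CpG content. Bidirectional pairs sit at 92.7% in both lists and single promoters at 52.5% and 50.2%, and the smallest gap is among CpG-rich promoters.

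Pairs on either side of the 1000 bp limit are given here as a description. Pairs more than 800 and up to 1000 bp apart had a peak at 14 of 16 regions (87.5%), with median ranks of 96.0 in the GFP- and 95.1 in the GFP+ list, and pairs just outside, over 1000 and up to 1200 bp apart, had one at 16 of 20, with median ranks of 96.8 and 95.8. Head-to-head pairs over 1000 and up to 5000 bp apart had a peak at 76.0% of 412 regions in the GFP- and 74.8% in the GFP+ list, and more than 1 peak at 54.6% and 56.5% of the regions with any. Pairs within the limit had more than 1 peak at 2 regions (0.286%) in the GFP- and 5 (0.715%) in the GFP+ list. A further 457 pairs have 5′ ends that overlap, so that the rule leaves them out, and 89.7% of these had a GFP- peak and 88.4% a GFP+ peak.

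Peaks at bidirectional promoters also ranked high. Each peak was given its percentile rank, from 0 to 100, by its deposited area within its own list, and the highest-ranked overlapping peak stood for a promoter. The median rank at pairs was 93.6 in the GFP- list (quartiles 88.8 and 97.0) and 93.0 in the GFP+ list (87.6 and 96.8), compared with 89.4 and 88.2 at single promoters and with 91.2 and 89.996 at CpG-rich single promoters. Of the pairs with a peak, 70.5% in the GFP- and 65.4% in the GFP+ list had one above rank 90, compared with 47.8% and 43.4% of single promoters with a peak. Only 11 pairs had a rank under 50 in either list. The area grows with the length of a peak, and ranked by area per bp the medians were 93.2 and 91.3 at pairs and 84.0 and 82.3 at single promoters.

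**Figure D2:**
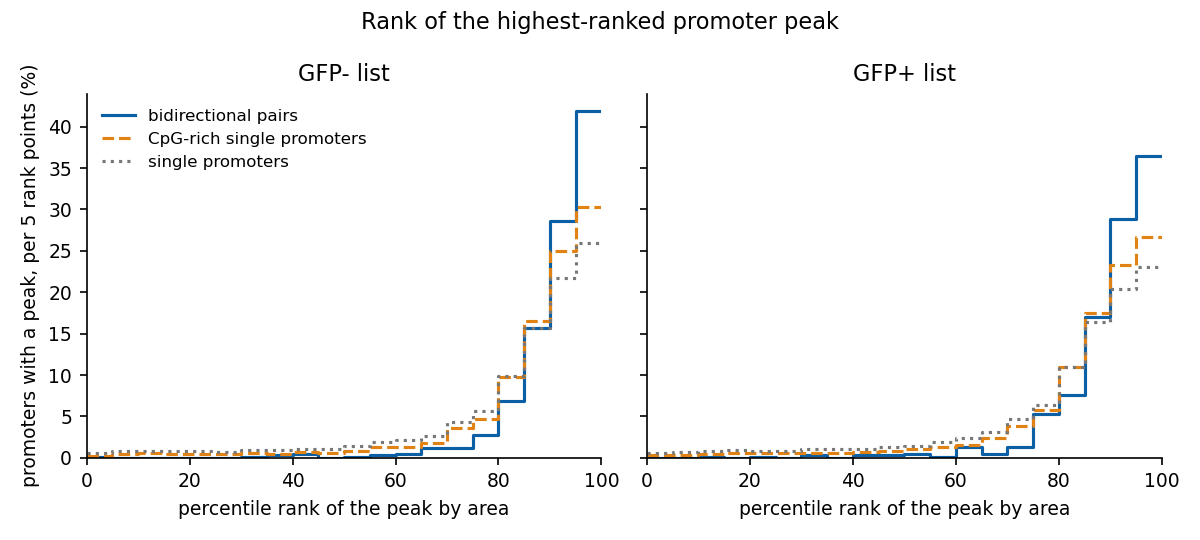
Percentile rank by area of the highest-ranked promoter peak, as the percent of promoters with a peak in each interval of 5 rank points, for the GFP- (left) and GFP+ (right) lists. The line of the bidirectional pairs reaches 41.9% and 36.5% in the last interval, above both classes of single promoters.

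The 8 pairs of highest mean rank were Peg3/Usp29, Cd3eap/Ppp1r13l, Dcaf6/Mpc2, Ddx5/Cep95, Hnrnpa2b1/Cbx3, Rnf5/Agpat1, Mepce/Zcwpw1 and Tshz1/Zadh2. The peak at Peg3/Usp29, an imprinted gene for a zinc finger protein and its imprinted neighbour for a ubiquitin protease, was 48th by area of all GFP- peaks and 45th of all GFP+ peaks, with lengths of 3511 and 3492 bp. It extended mostly into Peg3, and the promoter is not CpG-rich by the rule used here (CpG ratio 0.530). The peak at Cd3eap/Ppp1r13l, which code for a subunit of RNA polymerase I and an inhibitor of p53, was 102nd in the GFP- and 55th in the GFP+ list and was 4201 and 5663 bp long. The peak at Dcaf6/Mpc2, of which Mpc2 codes for a subunit of the mitochondrial pyruvate carrier, was 115th and 60th. Ddx5, an RNA helicase, and Cep95, a centrosomal protein, start 67 bp apart under a peak of 3445 bp in the GFP- and 3390 bp in the GFP+ list, 113th and 121st by area. The pair Hnrnpa2b1/Cbx3, for an RNA-binding protein and a heterochromatin protein, was 136th and 122nd. These pairs were chosen for a high mean rank over both lists, so their rank differences are small by the choice. Their positions by area still differed, as at Tshz1/Zadh2, whose peak was 90th and 4876 bp long in the GFP- list and 216th and 3417 bp long in the GFP+ list.

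Well-known pairs fell in the same range. Atm/Npat, a DNA damage kinase and a histone gene coactivator, had ranks of 96.0 in both lists, and Brca1/Nbr1, a repair protein and an autophagy receptor, had 99.3 in the GFP- and 99.2 in the GFP+ list. Mcm4/Prkdc, of the replicative helicase and the DNA-dependent protein kinase, had 97.9 and 97.7, and Gart/Son, of purine synthesis and RNA splicing, had 98.5 and 98.2. Psmb1/Tbp, of the proteasome and the TATA-binding protein, had 88.7 and 88.0 and was the lowest of these. Mrps12/Sars2, a mitochondrial ribosomal protein and the mitochondrial seryl-tRNA synthetase, had 94.5 and 93.2. All 6 were CpG-rich, and the ranks of the 2 lists lay within 1.26 points of each other. Several textbook pairs were no members because their annotated 5′ ends overlap, among them Col4a1/Col4a2 (by 21 bp), Hspd1/Hspe1 and Surf1/Surf2, while the ends of Col4a5/Col4a6 lie 1309 bp apart.

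A single peak usually covered both starts. In the GFP- list the peak covered both 5′ ends at 680 of 699 pairs (97.3%), and in the GFP+ list at 677 (96.9%). The exceptions lay mostly, but not only, at wide pairs: the share was 100.0% in both lists for ends 1 to 100 bp apart and 73.3% and 70.5% for ends over 500 and up to 1000 bp apart. The median peak length was 1361 bp (quartiles 1046 and 1757) in the GFP- and 1264 bp (1010 and 1664) in the GFP+ list, and 1203 and 1124 bp at single promoters. Once the distance between the ends was taken off, the median length at pairs was 1176 and 1107 bp, close to that of single promoters in both lists.

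The side of a pair into which its peak reached farther was mostly the same in both lists. The peak reached a median of 719 bp into the gene on its longer side and 446 bp into the gene on its shorter side in the GFP- list, and 687 and 424 bp in the GFP+ list. The sides were sorted by their reach, so some difference is built in, and single promoters sorted in the same way had medians of 784 and 397 bp in the GFP- list and 730.5 and 366 bp in the GFP+ list. By direction, the peak of a single promoter reached a median of 717 bp downstream and 445 bp upstream of the start in the GFP- list. Of the 672 pairs with a peak over both ends in both lists, 549 (81.7%) had the same gene on the longer side in both. Where the sides differed by more than 200 bp in the GFP- list, the same gene had the longer side in the GFP+ list at 359 of 400 pairs (89.8%). The strand was no guide, since the plus-strand gene had the longer side at 343 of the 672 pairs in the GFP- and 337 in the GFP+ list.

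The summit, the position of highest significance in a peak, lay between the 5′ ends at 376 pairs (53.8%) in the GFP- and 405 pairs (57.9%) in the GFP+ list. This share was 33.1% and 39.2% for pairs 1 to 100 bp apart and 78.0% and 81.1% for pairs over 200 and up to 300 bp apart. Summits of the 2 lists lay a median of 7.0 bp from each other at pairs and 11.0 bp at single promoters, and 594 pairs (85.2%) had them within 50 bp, compared with 80.6% of single promoters.

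**Figure D3:**
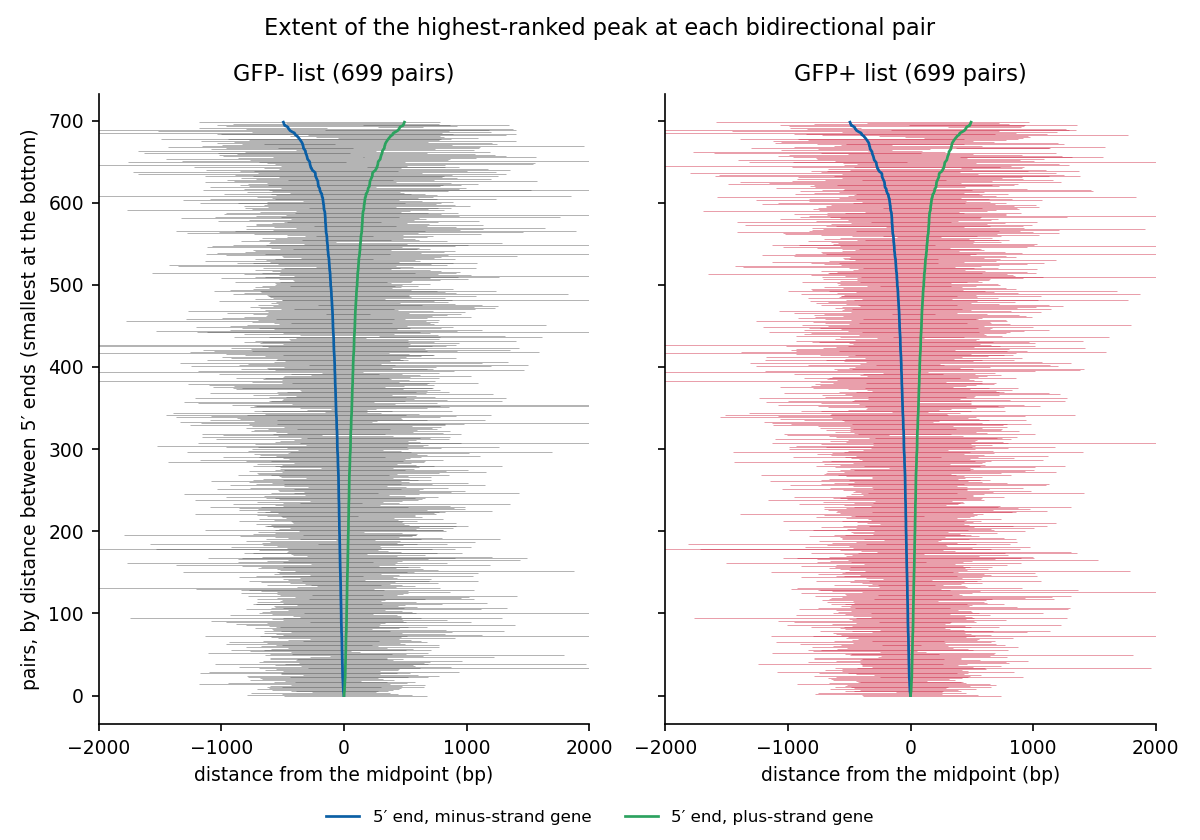
Extent of the highest-ranked peak at each bidirectional pair in the GFP- (left, 699 pairs) and GFP+ (right, 699 pairs) lists, relative to the midpoint of the pair, with pairs sorted by the distance between their 5′ ends (blue and green lines). Most peaks extend past both lines, 73.3% of GFP- and 70.5% of GFP+ peaks even in the widest group, and 26 GFP- and 16 GFP+ peaks run beyond the 2000 bp shown on either side.

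Pairs with more distance between their ends had longer and mostly higher-ranked peaks. The median GFP- rank was 90.8 for ends 1 to 100 bp apart (293 pairs with a peak), 94.6 up to 200 bp (191), 95.2 up to 300 bp (91), 96.7 up to 500 bp (64) and 96.4 up to 1000 bp (60), and the median length was 1163 bp in the closest and 1865 bp in the widest group. The GFP+ medians were 89.7, 94.3, 95.1, 96.2 and 95.5. Across the 699 pairs with a peak, Spearman's rho of distance with rank was 0.366 in the GFP- and 0.333 in the GFP+ list, and with the rank by area per bp 0.231 and 0.170. Within pairs, GC content and CpG ratio were nearly unrelated to rank, with rho between 0.0560 and 0.0953. The points share their list and the region widens with distance, so these are descriptions only. Presence had no steady order along distance, with a GFP- peak at 93.9, 92.7, 91.0, 97.0 and 85.7% of pairs in these groups, and the intervals of the closest (90.7 to 96.1%) and the widest group (75.7 to 92.1%) overlapped.

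The lists differed at few bidirectional promoters. A peak was present in both lists at 697 pairs, in the GFP- list alone at 2 pairs and in the GFP+ list alone at 2 pairs, that is 0.265% of pairs each way. Over all pairs and single promoters together, 3.27% had a peak in the GFP- list alone and 1.04% in the GFP+ list alone. Among the 697 pairs with a peak in both lists the median rank difference, GFP+ minus GFP-, was -0.35 points (quartiles -1.39 and 0.11), and at single promoters it was -0.87 points. The GFP+ rank was higher at 219 pairs and lower at 478 (68.6%). This direction was not kept when both lists had the same length. With the 65008 peaks of largest area taken from each list and ranked again, the GFP+ rank was higher at 511 of 696 pairs (73.4%) and lower at 185, and the median difference turned to 0.55 points, with 0.44 points at single promoters. Leaving out the smallest GFP- peaks lowers the ranks of the GFP- peaks that remain, so a shift to this side was fixed in advance. Its cause was not tested. Small differences in percentile rank therefore have no direction here. The GFP+ rank lay within 5 points of the GFP- rank at 657 pairs (94.3%), compared with 77.6% of single promoters. Peaks of pairs ranked higher, with lower quartiles of 88.8 and 87.6 against 78.7 and 77.1 at single promoters, and high ranks leave less room to differ. Grouped by the mean rank over both lists, 100.0% of 269 pairs and 99.1% of single promoters above rank 95 lay within 5 points. The shares were 99.5% and 93.4% from rank 90 to 95, 93.5% and 83.4% from rank 80 to 90, and 53.3% of 60 pairs and 37.8% of single promoters up to rank 80. A difference of more than 20 points was found at 2 pairs with a lower and 3 pairs with a higher GFP+ rank, 0.287% and 0.430%. Over all pairs and single promoters with a peak in both lists, 4.66% were lower and 1.21% higher. All of these pairs had a mean rank up to 80, a band with few pairs. In it, 2 of 60 pairs were lower and 3 higher, beside 444 and 114 of 2424 single promoters. The smaller share of higher pairs therefore goes with their high ranks. Ranked by area per bp instead, 21 of the 697 pairs were lower and 11 higher in the GFP+ list by more than 20 points. Of 9332 single promoters with a peak in both lists, 803 were lower and 269 higher. Where the summit had to lie in the region, 7 of 754 pairs had a peak in the GFP- list alone and 12 in the GFP+ list alone. Of 19001 single promoters, 700 and 422 did. Spearman's rho between the ranks of the lists was 0.975 across the pairs and 0.936 across single promoters. Composition went with this too, since 96.0% of CpG-rich pairs and 82.6% of other pairs lay within 5 points, compared with 83.7% and 57.7% of single promoters.

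**Figure D4:**
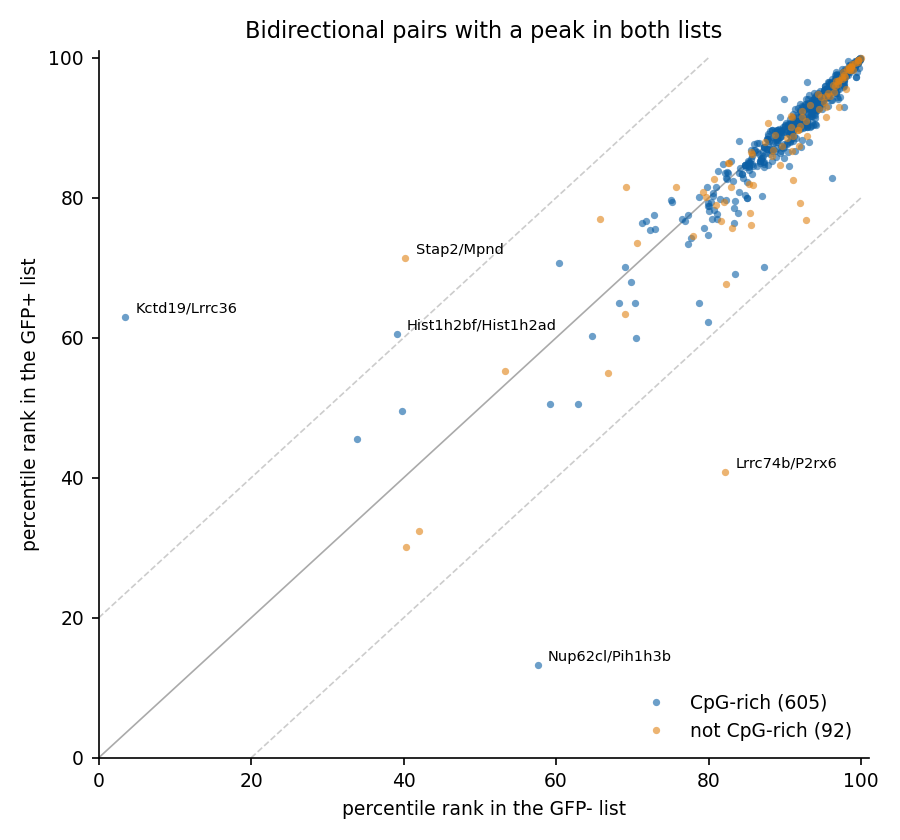
Percentile rank by area in the GFP- list (horizontal) and in the GFP+ list (vertical) for the 697 bidirectional pairs with a peak in both, coloured by CpG content, with the diagonal and dashed lines at 20 points from it. The pairs cluster along the diagonal at high ranks, and the 5 named pairs lie outside the dashed lines.

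The pairs with the largest positive differences had GFP- ranks below the lower quartile of pairs, and most had short peaks there. Kctd19/Lrrc36, whose minus-strand gene acts in meiosis, had rank 3.45 (320 bp) in the GFP- and 63.0 (468 bp) in the GFP+ list. Stap2/Mpnd, of which Stap2 codes for a signalling adaptor, had 40.2 (487 bp) and 71.4 (746 bp), and the histone pair Hist1h2bf/Hist1h2ad had 39.1 and 60.5 with nearly the same length (365 and 352 bp). Differences under 20 points in this direction were those of Zwilch/Rpl4, a kinetochore protein and a ribosomal protein (69.2 and 81.6), Il17rb/Chdh, a cytokine receptor subunit and choline dehydrogenase (33.8 and 45.6), and Pcdh12/Rnf14 (65.7 and 77.0). The GFP- peak of Zwilch/Rpl4 did not cover the start of Rpl4. Pcdh12 codes for a protocadherin of endothelial cells, and its peak was 1139 bp long in the GFP- and 1445 bp in the GFP+ list.

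The 6 largest differences in either direction kept their sign with lists of equal length, except that the GFP- peak of Kctd19/Lrrc36 was then no longer among the peaks ranked. For the positive differences this was fixed in advance, since GFP- ranks can only fall in that setting. The largest negative difference was that of Nup62cl/Pih1h3b on the X chromosome, with rank 57.6 (573 bp) in the GFP- and 13.3 (386 bp) in the GFP+ list. Lrrc74b/P2rx6, of which P2rx6 codes for a subunit of an ATP-gated ion channel, had 82.2 (1449 bp) and 40.8 (441 bp). Its GFP+ peak covered the start of Lrrc74b and not that of P2rx6. Nup62cl/Pih1h3b and Lrrc74b/P2rx6 were the pairs past 20 points in this direction. Sgce/Peg10, an imprinted pair for a sarcoglycan and a retrotransposon-derived protein, had 79.9 and 62.3. Bend6/Dst, of which Dst codes for a cytoskeletal linker, had 87.3 and 70.0 with almost the same length (1355 and 1290 bp). The GFP+ peak of Bend6/Dst did not cover the start of Dst. Hist1h2bh/Hist1h3f had 92.8 and 76.8, and its GFP+ peak covered neither start. Col4a4/Col4a3, for chains of the basement membrane collagen IV, had 82.2 (1338 bp) and 67.8 (704 bp) and is the only pair of collagen genes among the members. The pair Odf3l1/Cspg4, of which Cspg4 is a marker of mural cells, had ranks of 85.6 and 76.1. In sorted nuclei, a smaller share of a cell type and less accessibility per nucleus cannot be told apart, and the part of the cell types named by the markers in these differences was not tested.

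The pairs with a peak in a single list were all outside the CpG-rich class. Grik5/Zfp574, for a kainate receptor subunit and a zinc finger protein, had a GFP- peak of 1546 bp over both starts with rank 69.7, and the nearest GFP+ peak lay 3662 bp from the region. At Pinlyp/Xrcc1, of which Xrcc1 codes for a scaffold of single-strand break repair, the GFP- peak of rank 93.2 covered neither 5′ end. It overlapped the region by 48 bp, and a GFP+ peak of rank 92.6 that overlapped it began 16 bp beyond the region, so that this pair was one-sided by position only. Sncg/Mmrn2 had a GFP+ peak of 959 bp and rank 43.6 over both starts, with its summit 9 bp from the start of Mmrn2, which codes for an extracellular matrix protein of endothelial cells. Tssk3/Fam229a, of which Tssk3 codes for a testis kinase, had a GFP+ peak of 583 bp and rank 22.5, and the nearest GFP- peak lay 4314 bp away.

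Few genes of the cell-type gene sets that the study chose from single-cell expression belong to bidirectional pairs. These were 5 of 176 endothelial genes (2.84%), 5 of 110 cardiomyocyte genes (4.55%) and 3 of 242 fibroblast genes (1.24%), compared with 74 of 726 non-specific genes (10.2%) and 6.83% of all gene symbols. At the 68 pairs of non-specific genes with a peak in both lists the rank differences ranged from -3.35 to 2.96 points. Ccdc148/Pkp4, with a plakophilin gene, had ranks of 96.8 in the GFP- and 97.9 in the GFP+ list, and Tnfaip1/Ift20, whose starts are 29 bp apart, had 96.9 and 97.7. Myl12b/Myom1, a regulatory myosin light chain and a protein of the sarcomere M-band, had 98.9 and 98.7 and is the only pair counted with both the endothelial and the cardiomyocyte set. The endothelial gene Pecam1, paired with Milr1, had no peak at its gene-record start in either list. In the cardiomyocyte set, Smim7/Tmem38a, with a cation channel gene of the sarcoplasmic reticulum, had 99.6 and 99.7. Cdc27/Myl4, with an atrial myosin light chain gene, had 95.2 and 95.5. Klc3/Ckm, with muscle creatine kinase, had a short peak of rank 42.1 and 32.5, a difference that changed sign with lists of equal length. In both lists this peak covered the start of Klc3 and not that of Ckm. The fifth pair of this set, Smyd1/Cd8b1, had no peak in either list. The pairs of the fibroblast set had differences of -0.35 points at Cbx5/Hnrnpa1, -2.48 points at Chpf/Tmem198 and -17.60 points at Sgce/Peg10, beside a lower GFP+ rank at 68.6% of all pairs and a median difference of -0.35 over them. At single promoters with a peak in both lists, the median difference was -11.86 points for 146 fibroblast genes, 1.996 points for 125 endothelial genes, -1.13 points for 89 cardiomyocyte genes and -0.48 points for 545 non-specific genes. A further 63 of 236 single promoters of fibroblast genes had a GFP- peak alone, and 20 of 166 of endothelial genes a GFP+ peak alone. Over all single promoters, 3.39% had a GFP- peak alone and 1.07% a GFP+ peak alone, and the median difference was -0.87 points.

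Housekeeping families were often paired. Families were taken by gene symbol, so the respiratory chain set also holds assembly factors (Ndufaf genes). The share in bidirectional pairs was 40.3% of 67 histone (Hist) genes, 32.1% of 28 RNA polymerase genes and 25.5% of 98 replication and repair genes. It was 23.7% of 97 respiratory chain genes, 23.1% of 78 mitochondrial ribosome genes and 19.2% of 26 mitochondrial import genes. Of 50 proteasome genes 16.0% were paired, compared with 6.83% of all symbols. Cytosolic ribosome genes (10.1% of 79), Zfp zinc finger genes (5.08% of 394) and collagens (4.55% of 44) were nearer to it. Over all pairs, 697 of 754 (92.4%) had a peak in both lists, and most families were near this share. All 18 pairs with a mitochondrial ribosome gene had a peak in both lists, with median ranks of 92.9 and 92.7, and so had all 23 pairs with a respiratory chain gene (91.8 and 91.7). All 9 pairs with an RNA polymerase gene did as well (95.2 and 94.2), among them Polr2l/Tspan4, with a subunit common to the RNA polymerases, at 99.0 and 98.3. The rank differences of these pairs, GFP+ minus GFP-, ranged from -4.86 to 2.96 points. Of 24 pairs with a replication or repair gene, 23 had a peak in both lists (medians 92.3 and 91.5), and the remaining one was Pinlyp/Xrcc1. Of pairs with a proteasome gene 6 of 8 had a peak in both lists, as had 7 of 8 with a cytosolic ribosome gene, 16 of 18 with a Zfp gene and all 5 with a mitochondrial import gene. Among respiratory chain pairs, Uqcrh/Lrrc41 of complex III reached 99.2 and 99.1, and Sdhd/Timm8b of complex II had 91.1 and 92.0.

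Core histone pairs had lower ranks. Of 14 pairs with a core histone gene, 13 of them made of histone genes on both sides, 7 had a peak in both lists and 7 had none. The 7 with peaks had median ranks of 79.3 in the GFP- and 76.8 in the GFP+ list, and their GFP- ranks ran from 39.1 at Hist1h2bf/Hist1h2ad and 39.8 at Hist1h2bl/Hist1h2ai to 92.8 at Hist1h2bh/Hist1h3f. The authors kept reads above a mapping quality limit, and histone genes have near-identical copies, so values at these pairs are uncertain.

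In all, 53 pairs had no peak in either list, 24 of them CpG-rich. Among the closest of them were Hjurp/Trpm8 (28 bp) and Best1/Rab3il1 (36 bp). Genes used by most cells were among them, such as Psmc5 (with Ftsj3) and Psma7 (with Ss18l1) of the proteasome, Alyref of mRNA export with Anapc11 of the anaphase-promoting complex, and Rps2 (with Rnf151) of the ribosome. The 24 CpG-rich pairs lay in stretches that held no peak of either list over a median of 101536 bp. For 20 of them (83.3%) the stretch was at least 50000 bp. The flanking peaks of CpG-rich pairs with peaks in both lists had a median of 37636 bp between them. Promoters without a peak lie in longer stretches by that choice. The median was 87091 bp for the other pairs without a peak. It was 71478 bp for CpG-rich single promoters without a peak, with 63.2% at 50000 bp or more. At 11 of the 24 both edges of the stretch lay within 500 bp of each other in the 2 lists. The authors left out the blacklisted regions of ENCODE when calling peaks, and the part this had in these stretches was not tested. A peak lay within 1000 bp of the region at 6 of the 53 pairs. On the X chromosome 6 of 20 pairs had no peak in either list, compared with 47 of 734 pairs on the autosomes, and single promoters on X had a peak at 36.0% and 33.1%, compared with 53.3% and 51.0% on the autosomes.

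The motif words shown in the spans were counted in the 300 bp from 250 bp before to 50 bp after each start, on both strands. Windows of paired genes overlap each other, and the words can overlap. A word can therefore count for both genes of a pair, and the intervals for genes in pairs, which treat genes as independent, are too narrow. The ETS word was found at 406 of 1487 genes in pairs, 27.3% (interval 25.1 to 29.6%), compared with 9.08% of single promoters, 16.5% of CpG-rich single promoters (15.8 to 17.4%) and 10.9% of all genes. It is carried by the printed span of Cd3eap/Ppp1r13l. The YY1 word, which stands in the span of Mepce/Zcwpw1, was found at 10.2% (8.72 to 11.8%) of genes in pairs and at 6.26% of CpG-rich single promoters. The CCAAT word of NFY was found at 44.0% (41.5 to 46.5%) and at 37.7%. In contrast, the SP/KLF word was found at 68.9% (66.5 to 71.2%) of genes in pairs and at 73.0% (72.0 to 73.9%) of CpG-rich single promoters. Over all single promoters it was found at 40.7%. The TATA word was found at 4.10% (3.21 to 5.23%) and 6.10%, with 13.6% over all single promoters. Genes in pairs were taken from all pairs, of which 83.4% were CpG-rich, and CpG-rich pairs were not counted apart. These comparisons with CpG-rich single promoters are therefore not matched for CpG content. The NRF1 word (6.72% and 6.00%), the E-box (11.4% and 11.5%), the CRE word (4.51% and 3.81%), the ZNF143 word (0.672% and 0.544%) and the AP-1 word (3.16% and 3.48%) had overlapping intervals in pairs and CpG-rich single promoters. A word in the span between the ends did not go with a uniformly higher rank. The median GFP- rank was 93.0 at the 110 pairs with an ETS word in the span and 93.9 at the 589 without, 95.01 at the 271 with CCAAT and 92.8 at the 428 without, and spans with CCAAT were longer (median distance 203.0 and 82.5 bp).

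**Figure D5:**
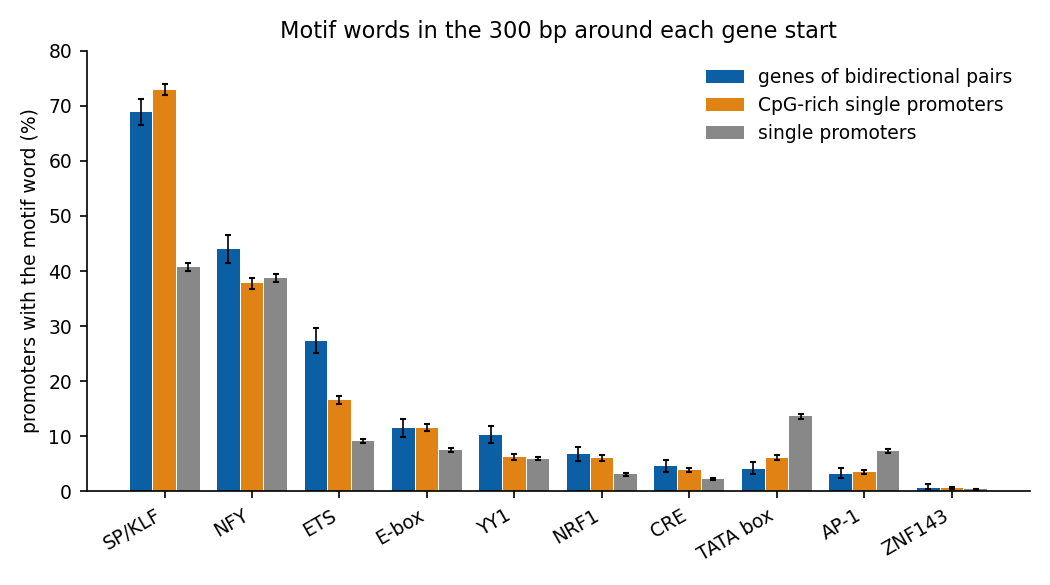
Share of promoters with each motif word on either strand in the 300 bp around the gene start, for genes of bidirectional pairs, CpG-rich single promoters and all single promoters, with Wilson 95% intervals. The ETS word stands at 27.3% of genes in pairs and 16.5% of CpG-rich single promoters, and the SP/KLF word at 68.9% and 73.0%. Genes of pairs were counted whether CpG-rich or not.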

How the data were processed

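The data were ATAC-Seq libraries of sorted heart nuclei, 2 from GFP- and 2 from GFP+ nuclei, grouped by their labels. Reads were trimmed (fastp) and mapped to mm10 (Bowtie2, 2.3.5.1 in the submitters' processing notes), and reads of low mapping quality and duplicates were discarded. The authors then brought the libraries to a common depth and ran Genrich in its ATAC-Seq mode, leaving the mitochondrial genome, the Y chromosome and the ENCODE blacklist out of the calling. They deposited 1 peak list per population, from both replicates together. In the deposited lists, the area of a peak is a signal added up along its length, the score is that area per bp with a ceiling, and the -log10 p-value is the one at the summit. Positions are other columns of the deposited lists.

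Starts were the 5′ ends of GENCODE M21 gene records, which is an annotation of the same build. A peak counted when it overlapped a region by at least 1 bp, and ranks were by area within each list, which depend on the number of peaks in it. Wilson 95% intervals were computed for shares and order-statistic intervals for medians. Named pairs were those with a peak in a single list, the 8 of highest mean rank, the 6 largest differences each way, pairs of the study's cell-type gene sets, the 4 closest pairs without a peak, and textbook pairs. Some of these are not reported here. Odf3l1/Cspg4 and the examples within gene families were chosen after their values were seen. The members, lists and rules were chosen with earlier results of these data known. Calculations ran in pandas 2.3.3, numpy 2.4.6, pysam 0.24.0 and scipy 1.17.1 under Python 3.11.15, and overlap and pairing were tested on simulated data.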

Additional observations from a re-analysis of the deposited data

How the results depend on the processing

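No paired analysis was possible because each population has a single peak list made from both replicates together, and leaving out a replicate was not possible for the same reason. The causes of the shifts below were not tested unless the setting itself gives them. Of 161 values under alternatives, 89 stayed within the interval or within 1.5 times of the reported value, 70 moved and 2 changed sign, and pairs kept the larger share with a peak and the higher median rank under every alternative that gave these values for both classes. Values are for the GFP- and then the GFP+ list.

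Requiring the summit in the region gave a peak at 85.9 and 86.6% of pairs and 42.5 and 41.1% of single promoters. Pairs with a peak in a single list then numbered 7 and 12, and single promoters with a GFP+ peak alone 422. Single promoters then had median lengths of 1145 and 1068 bp and median ranks of 88.8 and 87.7, and 300 were lower in GFP+ by more than 20 points. Among CpG-rich promoters, 96.2% of pairs in both lists and 89.2 and 87.5% of single promoters had a peak, 0 pairs and 210 and 67 single promoters had it in a single list, and 1 pair and 232 single promoters were lower and 48 single promoters higher by more than 20 points. Their single promoters had median lengths of 1285 and 1187 bp, median ranks of 91.2 and 89.996 and a median rank difference of -0.72.

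Ranked by the summit's -log10 p, the median rank was 95.4 and 94.4 at pairs and 89.8 at single promoters in the GFP- list, the median difference was -0.70 at pairs and -1.22 at single promoters, and 4 pairs were lower by more than 20 points. Ranked by area per bp, the medians were 93.2 and 91.3 at pairs and 84.0 and 82.3 at single promoters, the median differences -0.90 and -1.61, and 21 pairs and 803 single promoters were lower and 11 pairs and 269 single promoters higher by more than 20 points. Keeping peaks of at least 2 times the smallest area left 1 pair and 271 single promoters lower and 56 single promoters higher, and single promoters had shares of 50.4 and 47.9%, lengths of 1238.5 and 1156 bp and ranks of 89.9 and 88.8.

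Each 5′ end taken alone gave 4 and 6 genes of pairs with a peak in a single list. With pairs up to 500 bp, 1 pair had a GFP+ peak alone and 1 was lower by more than 20 points. By the start of an APPRIS principal transcript, 1 pair had a GFP- peak alone and 54.3 and 52.0% of single promoters had a peak. Single promoters without an opposite start of any gene had shares of 49.99 and 47.7%, lengths of 1180 and 1100 bp and ranks of 88.8 and 87.7. Counting a missing peak as rank 0 gave a median difference of -0.99 at single promoters. Leaving out receptor genes of smell and taste, an alternative chosen after seeing the data, gave single promoters 57.0 and 54.5%. The 65008 peaks of largest area in each list, ranked again so that the lists have equal length, were also an alternative chosen after seeing the data. The median difference then changed sign, to 0.55 points at pairs and 0.44 at single promoters, and 189 single promoters were higher by more than 20 points. Lists of equal length leave out small GFP- peaks only. The libraries were called at a common depth, and with no read counts in the lists the reads behind single peaks cannot be given.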
